A study of Homo sapiens with 18 samples.

Results

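Cereblon is the protein through which lenalidomide and related myeloma drugs act, and its messenger RNA was followed here together with those of its ligase partners, its drug-dependent substrates and its chaperone clients. The 10 genes were CRBN, DDB1, CUL4A, CUL4B, IKZF1, IKZF3, CSNK1A1, ZFP91, BSG and SLC16A1, and they were taken by gene symbol from the Ensembl identifiers of the count data, 10 of 57905 genes in all. All 10 passed the filter on low counts in every fit, with 655 reads (IKZF3) as the lowest count of any of them in any of the 18 libraries. The rule that names them uses no measured value, but the 10 genes were chosen with earlier results of these data known.

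The study sequenced poly(A) RNA from the human lines KMS12-BM (multiple myeloma, per the labels) and JJN3 (plasma cell leukemia, per the labels) after treatment with amiloride or TG003. Amiloride is a potassium-sparing diuretic that blocks epithelial sodium channels, and TG003 is an inhibitor of the CDC-like kinases, which phosphorylate splicing factors of the SR family. Each of the 6 groups held 3 libraries. In KMS12-BM they were amiloride at 0.1 mM for 24 h, TG003 at 0.4 mM for 24 h, and untreated cells given DMSO. In JJN3 they were amiloride at 0.4 mM for 24 h, TG003 at 0.4 mM for 24 h, and untreated cells given DMSO. The labels give no duration for DMSO, so it is not known whether the controls match the drugs in time. No group received lenalidomide. Each line is a single established line, the dose of amiloride differed between the lines, and KMS12-BM was grown in medium with a larger share of serum, so line, amiloride dose and medium cannot be told apart where the lines are compared. Nothing in the labels tells separate cultures from repeated libraries of 1 culture, and p-values measure only the spread among the libraries at hand, which may be technical.

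Cereblon is the substrate receptor of a cullin-RING ubiquitin ligase: DDB1 bridges it to the scaffold CUL4A or CUL4B, and the RING protein RBX1 recruits the ubiquitin-carrying E2 enzyme. Lenalidomide binds cereblon and reshapes its surface, so that proteins it does not otherwise hold, among them the lymphoid transcription factors IKZF1 (Ikaros) and IKZF3 (Aiolos), the kinase CSNK1A1 and the zinc finger protein ZFP91, are ubiquitinated and destroyed. In myeloma cells the loss of IKZF1 and IKZF3 lowers IRF4 and MYC, and cereblon also acts as a chaperone for the CD147 (BSG) and MCT1 (SLC16A1) complex that exports lactate.

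Reads counted in genes were between 23707695 and 50570234 per library. The lines were as labelled by their translocation genes, with 14407 to 42905 reads of CCND1 in KMS12-BM libraries and 20 to 80 in JJN3 libraries, and with 0 to 37 reads of MAF in KMS12-BM libraries and 16903 to 34828 in JJN3 libraries. The plasma cell regulators IRF4, PRDM1 and XBP1 were present in every library, while the B cell factor PAX5 averaged 51.9 CPM in untreated KMS12-BM and 0.0327 CPM in untreated JJN3. Of 4 mature B cell markers listed, PAX5 among them, 2 were tested between the untreated lines and both were called higher in KMS12-BM. The T cell and myeloid markers CD3D, CD3E, CD2, CD14, LYZ, CD33 and ITGAM had group means of at most 1.71 CPM (CD3E). Other off-lineage markers were not all absent. In KMS12-BM against JJN3 without drug, 1 erythroid marker was called lower (log2 -10.7), and 1 stromal (3.19) and 1 epithelial marker (2.21) were called higher. The 6 TG003 libraries stood apart from the other 12, with 0.106% to 0.130% of gene reads in processed pseudogenes against 4.49% to 5.61%, and with 7.79% to 9.13% of reads placed at several sites against 13.3% to 17.4%. This split coincides with TG003 in both lines. In every comparison of TG003 with DMSO below, the drug and whatever set these libraries apart cannot be told apart. Mitochondrially encoded genes took 0.265% to 0.448% of reads under amiloride and 3.86% to 4.25% without it in KMS12-BM, and 0.709% to 1.03% under amiloride and 2.06% to 2.61% without it in JJN3. Levels below are in CPM, reads scaled to a common library size, so they are shares of the RNA of a library, and a change in RNA per cell cannot be told apart from them.

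The stretch of protein that lenalidomide-bound cereblon grips in its zinc finger substrates is a hairpin in a C2H2 finger with a glycine after the second cysteine. Its coding sequence is shown for the 3 members that carry one, because this is the feature these 3 substrates share. CSNK1A1, which the drug also removes, is not a zinc finger protein. Among the fingers matched by a C2H2 pattern, 4 of 6 in IKZF1, 3 of 5 in IKZF3 and 2 of 3 in ZFP91 have that glycine. The glycine alone therefore does not single out the finger printed here. Each line gives 63 bases of GRCh37 on the coding strand, from the first cysteine codon, with the glycine codon in capitals.
IKZF1: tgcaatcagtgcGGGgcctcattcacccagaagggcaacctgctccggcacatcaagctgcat
IKZF3: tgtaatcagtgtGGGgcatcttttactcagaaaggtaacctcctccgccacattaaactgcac
ZFP91: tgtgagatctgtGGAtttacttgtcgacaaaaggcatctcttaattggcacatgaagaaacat
The IKZF1 stretch lies in exon 5 of 8 at chr7:50450255-50450317 (plus strand), the IKZF3 stretch in exon 5 of 8 at chr17:37947757-37947819 (minus strand), and the ZFP91 stretch in exon 11 of 11 at chr11:58384670-58384732 (plus strand). IKZF1 and IKZF3 were alike at 50 of 63 bases and encoded the same amino acid at 21 of 21 positions. ZFP91 was alike with each of them at 30 of 63 bases and 9 of 21 amino acids, the glycine included. The stretches were picked by a residue pattern that fixes both cysteines, the glycine, a glutamine and lysine, a leucine and both histidines. Agreement at those residues, the glycine among them, was therefore set by the search in every pair, and only the other residues could differ.

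Across the drug comparisons the ligase side of the pathway moved most under amiloride in KMS12-BM, where CRBN rose and DDB1 fell. Counts of called genes are by edgeR's quasi-likelihood test at a Benjamini-Hochberg adjusted p under 0.05 over all genes tested. Amiloride in KMS12-BM called 6 of the 10 members, 4 higher and 2 lower, where 68.7% of 15765 genes were called, 33.5% higher and 35.2% lower. Amiloride in JJN3 called 4 members, 4 higher and 0 lower, where 43.6% of 15704 genes were called, 19.7% higher and 23.9% lower. TG003 in KMS12-BM called 5 members, 1 higher and 4 lower, where 58.6% of genes were called, 26.9% higher and 31.7% lower. TG003 in JJN3 called 6 members, 4 higher and 2 lower, where 58.3% of genes were called, 26.2% higher and 32.1% lower. The members' counts therefore lie near the background of each comparison, and being called is not a property of the group of 10. Their median log2 fold change was 0.02, 0.11, -0.19 and 0.05 in these comparisons in the same order, against -0.02, -0.03, -0.03 and -0.04 over all genes tested. The members called under TG003 numbered 3 in KMS12-BM without TG003 library 2, and in JJN3 they numbered 3 without DMSO library 1 or 3 and 2 without TG003 library 2 or 3.

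**Figure D1:**
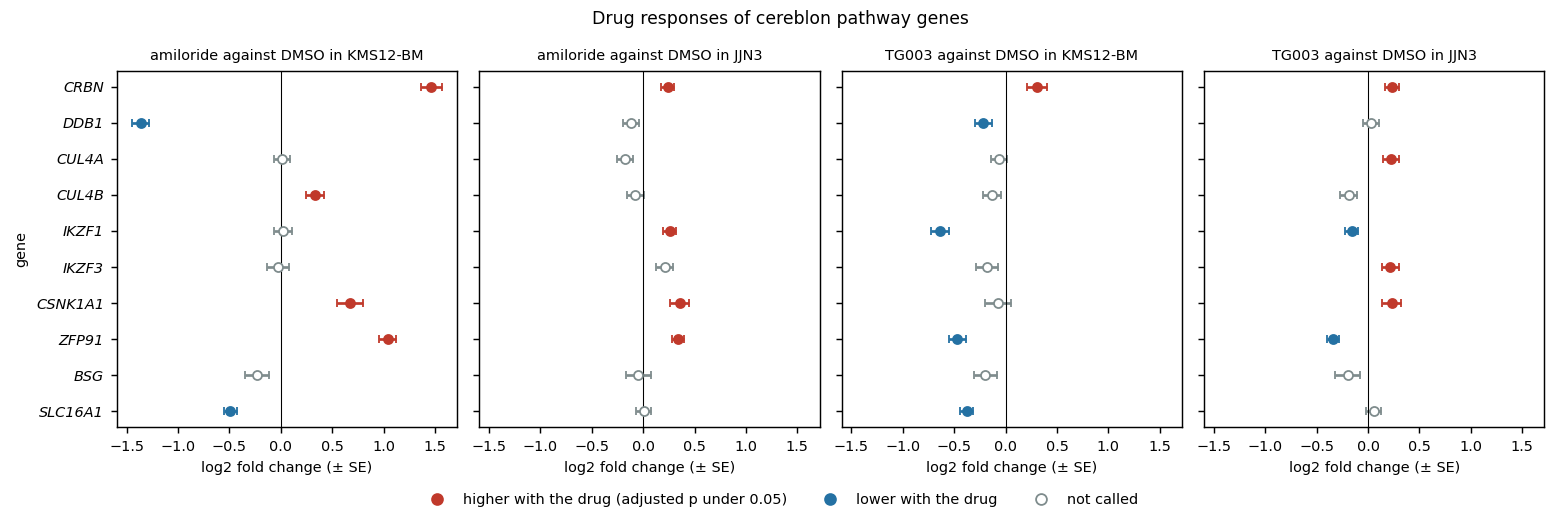
Log2 fold changes of the 10 genes against DMSO in 4 comparisons, one panel each, with the gene on the vertical axis and the whisker showing the standard error from edgeR's fit to 9 libraries of the line. Filled red points were called higher, filled blue points lower and open points were not called, and CRBN at 1.47 and DDB1 at -1.36 under amiloride in KMS12-BM lie farthest from 0.

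CRBN was the one member called higher by both drugs in both lines. In KMS12-BM its level was 150.4, 171 and 175 CPM under amiloride and 71.3, 76.9 and 72.9 CPM under TG003, against 51.7, 67.7 and 59.9 CPM in DMSO. In JJN3 it was 40.6, 43.9 and 42.2 CPM under amiloride and 40.5, 40.8 and 41.7 CPM under TG003, against 35.3, 36.5 and 35.2 CPM in DMSO. Every treated library of a line lay above every DMSO library of that line, and the lowest KMS12-BM amiloride library lay far above all the others. Amiloride raised CRBN 2.76-fold in KMS12-BM (log2 1.47 ± 0.10 SE, adjusted p = 2.5e-07) and 1.18-fold in JJN3 (0.24 ± 0.07, adjusted p = 0.0109). CRBN transcripts hold 38.2% G and C. With the trend of fold change on GC content removed, the values were 1.03 in KMS12-BM (adjusted p = 3.08e-07) and 0.18 in JJN3 (adjusted p = 0.0313). The response in KMS12-BM exceeded that in JJN3 by a log2 value of 1.22 ± 0.12 (adjusted p = 1.21e-07 for the interaction), and by 0.89 at the lowest over 24 alternatives. TG003 raised CRBN 1.24-fold in KMS12-BM (0.31 ± 0.10, adjusted p = 0.0187) and 1.17-fold in JJN3 (0.23 ± 0.07, adjusted p = 0.00869). The difference between these TG003 responses did not pass the test (0.10 ± 0.12, adjusted p = 0.685). Without DMSO library 1 the TG003 value in KMS12-BM was 0.21 (adjusted p = 0.0698) and without TG003 library 2 it was 0.27 (adjusted p = 0.0711).

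The CRBN gene (ENSG00000113851) lies at chr3:3186312-3221411 on the minus strand of GRCh37, and the tRNA-processing gene TRNT1 on the opposite strand covers 53.91% of the bases of its MANE Select transcript. The library kit marks strand, but the strand setting of the counting is not given in the sources used here. TRNT1 did not move with CRBN: it had 38.0, 33.1 and 31.7 CPM under amiloride and 31.9, 27.9 and 34.4 CPM under TG003 in KMS12-BM, against 37.1, 44.1 and 43.2 CPM in DMSO. It fell in KMS12-BM by 0.27 ± 0.11 on the log2 scale under amiloride (adjusted p = 0.0408) and by 0.40 ± 0.11 under TG003 (adjusted p = 0.00832). In JJN3 its values were 0.17 ± 0.10 under amiloride and 0.00 ± 0.10 under TG003, neither called. Of 9965 other protein-coding genes with a mean of at least 5 CPM, the 3 with the pattern most like CRBN over the 18 libraries were GRHL1 (r = 0.988), RBM18 (r = 0.988) and EPC1 (r = 0.987). These are Pearson correlations of log2(CPM + 0.5) over 18 libraries that form 6 groups, not 18 independent conditions, and KMS12-BM under amiloride has the highest group mean for CRBN.

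DDB1, the adaptor that joins cereblon and the other receptors of its kind to the cullin, fell under amiloride in KMS12-BM. Its level there was 235, 211 and 253 CPM under amiloride and 493, 496 and 552 CPM under TG003, against 567, 612 and 619 CPM in DMSO. The amiloride libraries lay below all others, and the TG003 libraries lay just below the lowest DMSO library. The fall under amiloride was 2.57-fold (log2 -1.36 ± 0.08, adjusted p = 1.34e-07). In JJN3 DDB1 had 589, 626 and 607 CPM under amiloride and 689.6, 646 and 634 CPM under TG003, against 690.5, 690.5 and 585 CPM in DMSO, so the ranges overlapped. Its JJN3 values were -0.12 ± 0.08 under amiloride (adjusted p = 0.245) and 0.03 ± 0.08 under TG003 (adjusted p = 0.733). The amiloride responses of the lines differed by -1.25 ± 0.11 (adjusted p = 4.33e-08). TG003 lowered DDB1 in KMS12-BM by 0.22 ± 0.08 on the log2 scale (adjusted p = 0.0398), and this call was lost without DMSO library 2 or 3 and without TG003 library 1 or 2, with values between -0.27 and -0.19 over the libraries left out in turn. With upper-quartile scaling it was -0.14 (adjusted p = 0.164).

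**Figure D2:**
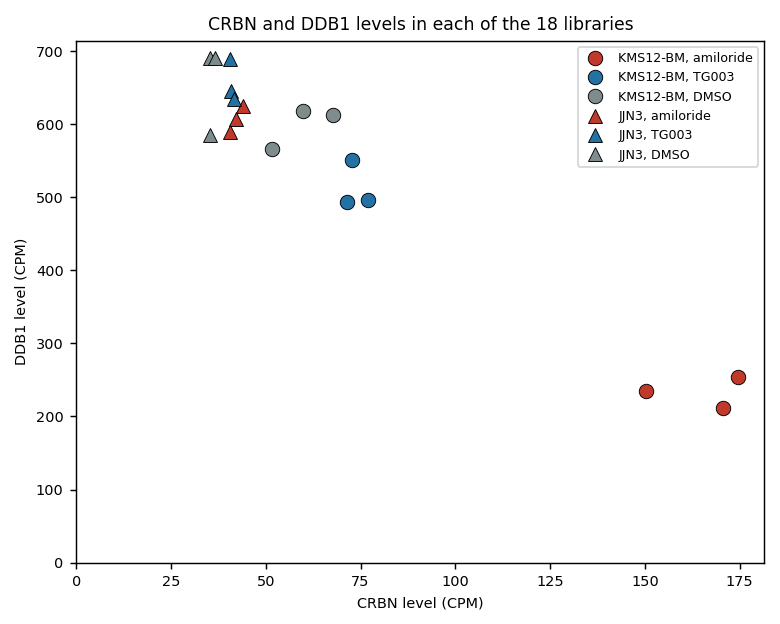
DDB1 level against CRBN level, both in CPM on linear axes from 0, with one symbol per library, circles for KMS12-BM and triangles for JJN3, coloured by treatment. The 3 KMS12-BM amiloride libraries sit alone at 150.4 to 175 CPM of CRBN and 211 to 253 CPM of DDB1, while the other 15 libraries have at most 76.9 CPM of CRBN and at least 493 CPM of DDB1.

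The opposite moves of CRBN and DDB1 changed the ratio of their reads within a library. CRBN reads were 0.641 to 0.809 of DDB1 reads in KMS12-BM under amiloride and 0.132 to 0.155 under TG003, against 0.0913 to 0.111 in DMSO. In JJN3 the ratio was 0.0689 to 0.0702 under amiloride and 0.0587 to 0.0657 under TG003, against 0.0511 to 0.0601 in DMSO. The ratio is not corrected for length, so it compares groups and not the genes. Under amiloride it lay above DMSO in both lines without overlap, and under TG003 it did so in KMS12-BM.

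The promoters of CRBN and DDB1 are shown because these members made the largest opposite changes. Each line gives 300 bases, 250 before to 50 after an annotated start (RefSeq, GRCh38.p14), on the gene's strand, with GC boxes in capitals.
CRBN: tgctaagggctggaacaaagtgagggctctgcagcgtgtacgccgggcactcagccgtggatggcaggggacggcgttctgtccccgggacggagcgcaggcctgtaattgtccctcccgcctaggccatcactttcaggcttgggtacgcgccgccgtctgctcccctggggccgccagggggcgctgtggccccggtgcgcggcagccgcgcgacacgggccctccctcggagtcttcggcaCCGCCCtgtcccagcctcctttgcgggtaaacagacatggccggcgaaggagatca
DDB1: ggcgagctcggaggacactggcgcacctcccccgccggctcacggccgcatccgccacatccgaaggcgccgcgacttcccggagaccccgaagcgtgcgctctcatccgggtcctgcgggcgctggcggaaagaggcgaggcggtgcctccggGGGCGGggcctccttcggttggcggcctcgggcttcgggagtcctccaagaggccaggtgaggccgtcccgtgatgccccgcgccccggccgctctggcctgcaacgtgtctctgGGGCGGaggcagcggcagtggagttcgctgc
The CRBN window is chr3:3179668-3179967 (minus strand) and the DDB1 window is chr11:61333056-61333355 (minus strand). The windows were searched on either strand for the GC box GGGCGG and for the CCAAT box, E-box, TATA box, cyclic AMP response element, ETS core and NRF1 core, and the GC box alone was found in either. It occurs in 45% of 35116 RefSeq promoters of this length, so it does not set these genes apart. The windows hold 69.0% and 74.3% G and C and 29 and 38 CpG pairs, in the order printed, against medians of 58.7% and 14 over all promoters. CRBN has another annotated start, whose window at chr3:3179642-3179941 overlaps the one printed and is not shown. It too held only the GC box, with 70.0% G and C and 31 CpG pairs. Of the 10 members 8 had a promoter in the table used, and IKZF3 and SLC16A1 were not matched.

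The scaffolds CUL4A and CUL4B, which hold the ligase together, changed little. CUL4A had 289.7, 291 and 249 CPM under amiloride and 267, 246 and 269.5 CPM under TG003 in KMS12-BM, against 262, 272 and 289 CPM in DMSO, and neither drug was called there (0.01 ± 0.08 and -0.07 ± 0.08). In JJN3 CUL4A had 69.7, 82.4 and 75.7 CPM under amiloride and 92.9, 100.1 and 101 CPM under TG003, against 77.1, 91.3 and 88.3 CPM in DMSO. The TG003 libraries lay above DMSO, a rise of 0.23 ± 0.08 (adjusted p = 0.0269) that was not called without DMSO library 1 or without TG003 library 2 or 3 (0.16 at the lowest, adjusted p = 0.116). Amiloride gave -0.18 ± 0.08 for CUL4A in JJN3 with overlapping ranges (adjusted p = 0.0892), and it was called without DMSO library 1 (-0.24, adjusted p = 0.0321) or amiloride library 2 (-0.23, adjusted p = 0.0497).

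CUL4B, the X-linked paralog that also acts in the nucleus, had 115, 139 and 147 CPM under amiloride in KMS12-BM, against 102, 109 and 107 CPM in DMSO. All 3 amiloride libraries lay above DMSO, by 0.33 ± 0.09 on the log2 scale (adjusted p = 0.00525), and the response exceeded that of JJN3 by 0.40 ± 0.12 (adjusted p = 0.0111). CUL4B transcripts hold 37.6% G and C, and the call was lost when base composition was taken into account: with the trend of fold change on GC content removed its value was -0.12 (adjusted p = 0.19) and the difference between lines 0.06 (adjusted p = 0.722). TG003 libraries of KMS12-BM had 95.8, 96.8 and 96.6 CPM, below DMSO but not called (-0.13 ± 0.09, adjusted p = 0.208). In JJN3 it had 47.0, 48.3 and 51.7 CPM under amiloride and 43.1, 46.9 and 42.6 CPM under TG003, against 48.4, 49.4 and 56.8 CPM in DMSO. The TG003 value was -0.19 ± 0.08 (adjusted p = 0.0611), and with the replicate block it was -0.19 (adjusted p = 0.0499). With the GC trend removed CUL4B was called lower under TG003 in both lines, at -0.20 in KMS12-BM (adjusted p = 0.0444) and -0.23 in JJN3 (adjusted p = 0.0212).

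Around the cullin, 24 genes were counted that assemble, neddylate or recycle the ligase or carry ubiquitin to it. Amiloride raised 13 and lowered 5 of them in KMS12-BM (median log2 0.29, against -0.02 over all genes) and raised 6 and lowered 1 in JJN3 (median 0.10). TG003 raised 6 and lowered 5 in KMS12-BM (median 0.04) and raised 15 and lowered 0 in JJN3 (median 0.29, against -0.04 over all genes). Over all genes amiloride raised 33.5% and lowered 35.2% in KMS12-BM and raised 19.7% and lowered 23.9% in JJN3. For TG003 these shares were 26.9% and 31.7% in KMS12-BM and 26.2% and 32.1% in JJN3. UBE2G1, an E2 enzyme that extends ubiquitin chains on cereblon's drug-induced substrates, moved in opposite directions under amiloride: it had 143, 139 and 152 CPM against 111, 122 and 127 CPM in DMSO in KMS12-BM, and 101, 121 and 106 CPM against 131, 135 and 131 CPM in DMSO in JJN3. The changes were 0.27 ± 0.07 (adjusted p = 0.00517) and -0.28 ± 0.08 (adjusted p = 0.00965), and their difference was 0.54 ± 0.11 (adjusted p = 0.000384). UBE2D3, the E2 that places the first ubiquitin, rose by 0.76 ± 0.06 under amiloride in KMS12-BM (adjusted p = 1.05e-06), with 475 to 528 CPM against 294 to 301 CPM in DMSO. COPS5, the catalytic subunit of the signalosome that removes NEDD8 from cullins, rose by 0.77 ± 0.15 under amiloride in KMS12-BM (adjusted p = 0.000748) and by 0.32 ± 0.09 in JJN3 (adjusted p = 0.00893).

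CAND1, which exchanges the receptors of cullin ligases, rose by 0.30 ± 0.08 under amiloride (adjusted p = 0.00656) and fell by 0.24 ± 0.08 under TG003 (adjusted p = 0.0258) in KMS12-BM. RBX1, the RING subunit itself, had 54.3, 58.7 and 54.4 CPM under TG003 in KMS12-BM and 62.3, 60.3 and 59.4 CPM in JJN3, whereas the other 12 libraries were scattered up to 51.2 CPM. Its TG003 change was called in JJN3 (1.47 ± 0.47, adjusted p = 0.0327) and not in KMS12-BM (1.41 ± 0.63, adjusted p = 0.088). The TG003 libraries also had far fewer reads in processed pseudogenes and at several sites, and the part of that in the RBX1 values was not tested. Among 24 other receptors that use DDB1 as cereblon does, amiloride raised 10 and lowered 8 in KMS12-BM and raised 4 and lowered 7 in JJN3, and TG003 raised 6 and lowered 6 in KMS12-BM and raised 9 and lowered 4 in JJN3. Over all genes amiloride raised 33.5% and lowered 35.2% in KMS12-BM and raised 19.7% and lowered 23.9% in JJN3, and TG003 raised 26.9% and lowered 31.7% in KMS12-BM and raised 26.2% and lowered 32.1% in JJN3. The median log2 values of the receptors were 0.15, -0.06, 0.04 and 0.15 in the same order.

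**Figure D3:**
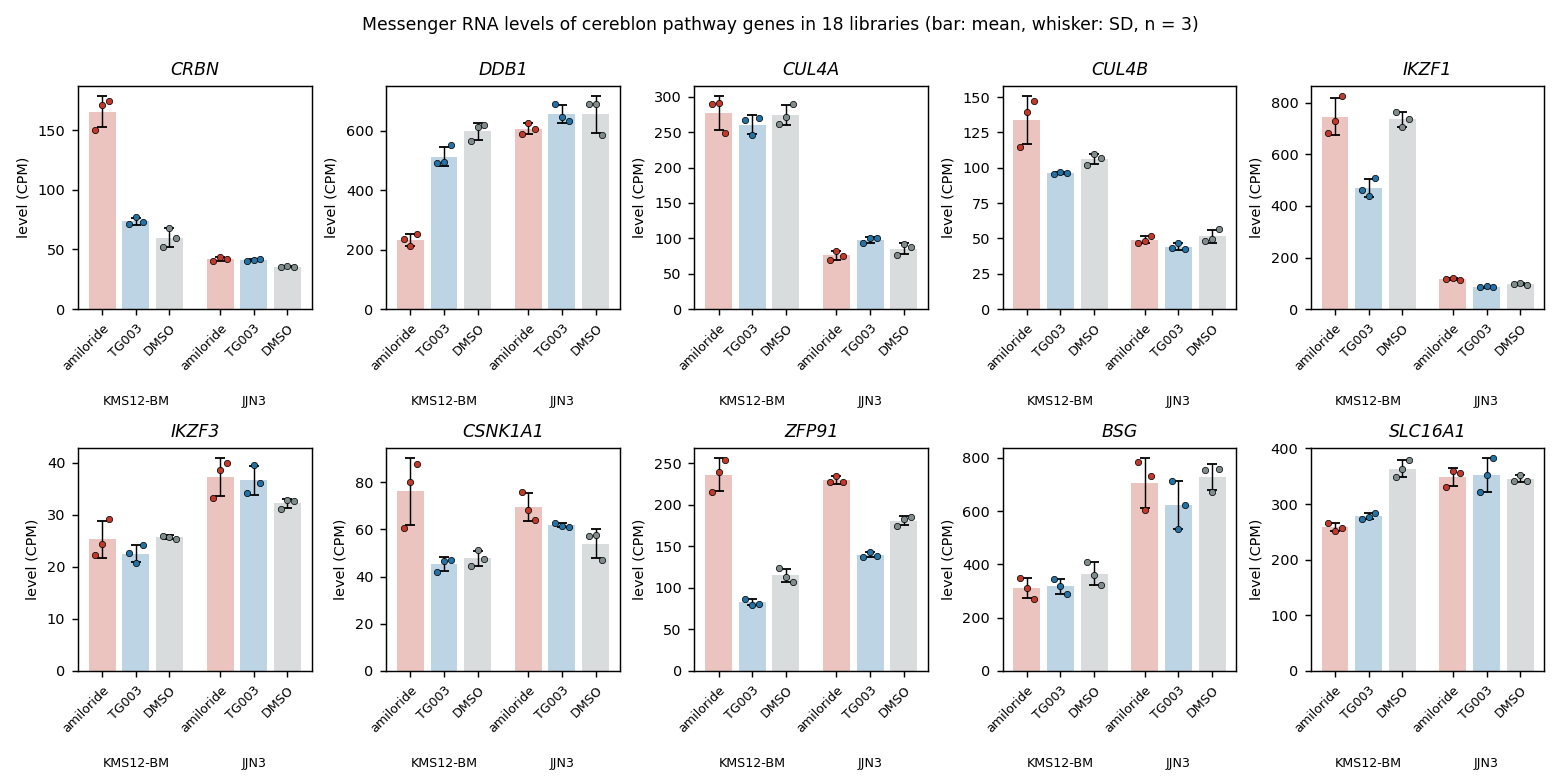
Levels of the 10 genes in CPM, one panel per gene with its own linear axis from 0, by line and treatment. Points are the 3 libraries of a group, bars their mean and whiskers the SD, and IKZF1 averages 736 CPM in untreated KMS12-BM and 97.5 CPM in untreated JJN3.

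Of the lymphoid substrates, IKZF1 fell under TG003 and IKZF3 stayed low in all groups. IKZF1 had 684, 730.4 and 825 CPM under amiloride and 464, 439 and 508 CPM under TG003 in KMS12-BM, against 766, 705 and 736 CPM in DMSO. The TG003 libraries lay below all DMSO libraries and the amiloride range spanned the DMSO range. TG003 lowered IKZF1 1.56-fold (log2 -0.64 ± 0.09, adjusted p = 6.37e-05), while the amiloride value was 0.02 ± 0.08 (adjusted p = 0.84). In JJN3 IKZF1 had 119, 121 and 112 CPM under amiloride and 85.0, 87.8 and 83.9 CPM under TG003, against 96.3, 102 and 94.7 CPM in DMSO. The 3 JJN3 groups did not overlap: amiloride was higher than DMSO by 0.26 ± 0.06 (adjusted p = 0.00537) and TG003 lower by a log2 value of -0.16 ± 0.06 (adjusted p = 0.0467). That TG003 call in JJN3 was lost whichever of its 6 libraries was left out, with values of -0.18 to -0.14. The TG003 response was stronger in KMS12-BM by -0.46 ± 0.11 (adjusted p = 0.00634), and the amiloride responses differed by -0.24 ± 0.11, which was not called (adjusted p = 0.0703) but was without KMS12-BM amiloride library 3 (-0.32, adjusted p = 0.0162) and with upper-quartile scaling (-0.31, adjusted p = 0.0174).

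IKZF3 had 22.3, 24.4 and 29.2 CPM under amiloride and 22.6, 20.8 and 24.2 CPM under TG003 in KMS12-BM, against 26.0, 25.8 and 25.3 CPM in DMSO. Neither drug was called there (-0.03 ± 0.11 and -0.18 ± 0.11). The JJN3 libraries had 33.2, 38.7 and 40.0 CPM under amiloride and 34.1, 39.6 and 36.1 CPM under TG003, against 31.2, 32.8 and 32.7 CPM in DMSO. Both treated groups lay above DMSO, by 0.22 ± 0.09 for TG003 (adjusted p = 0.0427) and by 0.21 ± 0.09 for amiloride, which was not called (adjusted p = 0.0648). The TG003 call was lost without DMSO library 1, 2 or 3 and without TG003 library 2 or 3, and the amiloride value was called without amiloride library 1 (0.28, adjusted p = 0.0231). The ratio of IKZF1 to IKZF3 reads, which is not corrected for length, was 20.5 to 21.1 under TG003 in KMS12-BM against 27.3 to 29.5 in DMSO, and 2.21 to 2.49 under TG003 in JJN3 against 2.90 to 3.10 in DMSO.

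The genes with the pattern most like IKZF1 over the 18 libraries were TMEM19 (r = 0.997), ABHD2 (r = 0.997) and TSPYL1 (r = 0.996), and those most like IKZF3 were WDR7 (r = 0.957), PPAT (r = 0.947) and BMS1 (r = 0.942). These correlations too rest on 6 groups from 2 lines.

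ZFP91, a zinc finger protein that lenalidomide also directs to cereblon, moved in opposite directions under the drugs in both lines. In KMS12-BM it had 215, 240.1 and 254 CPM under amiloride and 86.7, 79.9 and 81.1 CPM under TG003, against 124, 114 and 108 CPM in DMSO. In JJN3 it had 228, 235 and 227 CPM under amiloride and 138, 143 and 139 CPM under TG003, against 175, 183 and 186 CPM in DMSO. In each line all amiloride libraries lay above DMSO and all TG003 libraries below it. Amiloride raised ZFP91 2.06-fold in KMS12-BM (1.04 ± 0.08, adjusted p = 8.11e-07) and 1.27-fold in JJN3 (0.34 ± 0.06, adjusted p = 0.000675), and the responses differed by 0.69 ± 0.10 (adjusted p = 1.2e-05). With the GC trend removed the KMS12-BM value was 0.78 (adjusted p = 2.81e-06). TG003 lowered it 1.39-fold in KMS12-BM (-0.47 ± 0.08, adjusted p = 0.00053) and 1.27-fold in JJN3 (-0.34 ± 0.06, adjusted p = 0.00034). The readthrough gene ZFP91-CNTF shares 29.17% of the exon bases of ZFP91 on the same strand, and it had 2 to 16 reads in the TG003 libraries and 0 to 2 in the others.

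CSNK1A1, the casein kinase whose drug-induced loss is tied to lenalidomide's effect in myelodysplasia with a chromosome 5q deletion, was higher under amiloride in both lines. It had 60.5, 80.1 and 87.9 CPM under amiloride and 41.9, 46.7 and 47.1 CPM under TG003 in KMS12-BM, against 44.7, 51.1 and 47.5 CPM in DMSO. The JJN3 libraries had 75.8, 68.1 and 64.2 CPM under amiloride and 62.9, 61.5 and 61.2 CPM under TG003, against 57.2, 57.7 and 46.9 CPM in DMSO. Both amiloride groups and the JJN3 TG003 group lay above their DMSO libraries. The amiloride changes were 0.67 ± 0.12 in KMS12-BM (adjusted p = 0.000435) and 0.35 ± 0.09 in JJN3 (adjusted p = 0.00711), and with the GC trend removed the first was 0.32 (adjusted p = 0.0146). Their difference was not called (0.31 ± 0.16, adjusted p = 0.126), although it was without KMS12-BM amiloride library 1 (0.45, adjusted p = 0.00829), and with the GC trend removed it was 0.05 (adjusted p = 0.879). TG003 gave 0.23 ± 0.09 in JJN3 (adjusted p = 0.0459), a call that was lost without DMSO library 3 (0.14, adjusted p = 0.194), without TG003 library 1, 2 or 3, and with the GC trend removed (0.18, adjusted p = 0.113).

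CSNK1A1 shares sequence with other transcribed loci. A long noncoding gene on the same strand (ENSG00000230551) covers 49.31% of its exon bases, and it had 122 to 312 reads in the 18 libraries. The intronless copy CSNK1A1L had 0 reads in all 6 TG003 libraries and 68 to 242 reads in the other 12. Its part in the CSNK1A1 values was not tested. With the counts of processed pseudogenes added to the genes they are named after, the TG003 change of CSNK1A1 in JJN3 was 0.21 (adjusted p = 0.0632). That sum does not take in CSNK1A1L. Among the 18 other casein kinase 1 and beta-catenin destruction complex genes, amiloride raised 10 and lowered 2 of 17 tested in KMS12-BM (median 0.55) and raised 5 and lowered 0 of 18 in JJN3 (median 0.13), and TG003 raised 3 and lowered 5 of 17 in KMS12-BM and raised 5 and lowered 6 of 18 in JJN3. In the same order, 33.5%, 19.7%, 26.9% and 26.2% of all genes were called higher. The shares called lower were 35.2%, 23.9%, 31.7% and 32.1%. CSNK1D, a related kinase of circadian and Wnt signalling, rose by 0.94 ± 0.08 (adjusted p = 1.74e-06) and 0.58 ± 0.08 (adjusted p = 9.28e-05) under amiloride in KMS12-BM and JJN3 in that order, and its close relative CSNK1E was called for neither (-0.08 ± 0.07 and 0.07 ± 0.09). CTNNB1, the beta-catenin whose destruction starts with phosphorylation by CSNK1A1, rose by 0.74 ± 0.10 (adjusted p = 3.36e-05) under amiloride in KMS12-BM and by 0.22 ± 0.06 (adjusted p = 0.0126) in JJN3.

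Other proteins that drug-bound cereblon can take, with the rest of the Ikaros family, formed a list of 19 genes, of which 16 were tested in KMS12-BM and 17 in JJN3. Amiloride raised 9 and lowered 3 in KMS12-BM (median 0.48) and raised 3 and lowered 4 in JJN3 (median 0.08). TG003 raised 1 and lowered 5 in KMS12-BM (median -0.14) and raised 1 and lowered 7 in JJN3 (median -0.10). Of all genes tested, 33.5%, 19.7%, 26.9% and 26.2% were called higher in these comparisons in the same order. The shares called lower were 35.2%, 23.9%, 31.7% and 32.1%. ZMYM2, a chromatin protein, had 124, 138 and 144 CPM under amiloride in KMS12-BM against 52.0, 64.6 and 65.6 CPM in DMSO, a rise of 1.15 ± 0.09 (adjusted p = 9.12e-07), and 0.10 ± 0.08 in JJN3 was not called. IKZF5 (Pegasus) rose by 0.80 ± 0.09 under amiloride (adjusted p = 1.19e-05) and fell by 0.38 ± 0.09 under TG003 (adjusted p = 0.00431) in KMS12-BM. GSPT1, the translation termination factor taken by newer cereblon drugs, fell by 0.57 ± 0.07 under TG003 in KMS12-BM (adjusted p = 2.2e-05) and had -0.10 ± 0.08 in JJN3, and these responses differed by -0.45 ± 0.10 (adjusted p = 0.00489).

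IKZF2 (Helios) was a JJN3 transcript, with 1 to 6 reads in each KMS12-BM library. In JJN3 it had 48.8, 51.6 and 34.5 CPM under amiloride and 67.1, 71.4 and 71.5 CPM under TG003, against 83.5, 91.3 and 99.2 CPM in DMSO. Both drugs lowered it without overlap, amiloride 2.04-fold (-1.03 ± 0.12, adjusted p = 5.81e-05) and TG003 1.28-fold (-0.35 ± 0.12, adjusted p = 0.0262). Of 8 proteins known to bind or depend on cereblon without a drug, GLUL (glutamine synthetase) was called in 3 comparisons: amiloride raised it by 0.73 ± 0.09 in KMS12-BM (adjusted p = 2.75e-05), and in JJN3 it fell by 0.44 ± 0.07 under amiloride (adjusted p = 0.000328) and by 1.04 ± 0.07 under TG003 (adjusted p = 3.54e-08). On this list amiloride raised 1 and lowered 4 of 6 tested in KMS12-BM and raised 1 and lowered 2 of 5 in JJN3, and TG003 raised 0 and lowered 2 in each line, with medians of -0.44, -0.06, -0.03 and -0.14 in that order. Over all genes 33.5%, 19.7%, 26.9% and 26.2% were called higher, and 35.2%, 23.9%, 31.7% and 32.1% lower.

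Most of the 12 genes listed as sustained by IKZF1 and IKZF3 in myeloma, or as serving the same plasma cell program, fell under TG003. The list was chosen with earlier results of these data known, so its counts cannot test whether such genes fall more than others. TG003 lowered 11 and raised 0 of 12 in KMS12-BM (median log2 -1.01) and lowered 10 and raised 1 of 12 in JJN3 (median -0.57), against medians of -0.03 and -0.04 over all genes and backgrounds of 31.7% and 32.1% called lower. The fall was not particular to this list. Of 10 plasma cell markers, several of them also on this list, TG003 lowered 9 in KMS12-BM (median -1.10) and 10 in JJN3 (median -0.90). SP140, named after its values were seen, did not fall, at 0.08 in KMS12-BM (adjusted p = 0.804) and 0.56 in JJN3 (adjusted p = 0.00667). Amiloride raised 4 and lowered 3 in KMS12-BM and raised 3 and lowered 3 in JJN3. Over all genes it raised 33.5% and lowered 35.2% in KMS12-BM and raised 19.7% and lowered 23.9% in JJN3. IRF4, the transcription factor on which myeloma cells depend, had 1967, 2102 and 2213 CPM under amiloride and 461, 465 and 467 CPM under TG003 in KMS12-BM, against 1148, 1130.4 and 1203 CPM in DMSO. The JJN3 libraries had 1004, 905 and 699 CPM under amiloride and 455, 436 and 454 CPM under TG003, against 1071, 907 and 859 CPM in DMSO. TG003 thus brought IRF4 below every DMSO library in both lines, by -1.32 ± 0.07 in KMS12-BM (adjusted p = 1.02e-08) and -1.05 ± 0.12 in JJN3 (adjusted p = 1.35e-05). Amiloride raised it by 0.85 ± 0.07 in KMS12-BM (adjusted p = 5.61e-07), where IKZF1 was not called, and not in JJN3 (-0.13 ± 0.12, adjusted p = 0.417), and these responses differed by 0.97 ± 0.14 (adjusted p = 1.35e-05).

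MYC, the growth regulator downstream of IRF4, fell in all 4 comparisons. It had 888, 655 and 581 CPM under amiloride and 753, 740.0 and 730.5 CPM under TG003 in KMS12-BM, against 1586, 1496 and 1421 CPM in DMSO. In JJN3 it had 1395, 1267 and 1206 CPM under amiloride and 1450.5, 1361 and 1451 CPM under TG003, against 1945, 1994 and 2034 CPM in DMSO. No treated library reached a DMSO library of its line. The log2 changes were -1.08 ± 0.13 for amiloride (adjusted p = 2.28e-05) and -1.01 ± 0.13 for TG003 (adjusted p = 6.23e-05) in KMS12-BM, and -0.63 ± 0.07 for amiloride (adjusted p = 3.8e-05) and -0.46 ± 0.07 for TG003 (adjusted p = 0.000177) in JJN3. PRDM1, which encodes the plasma cell repressor Blimp-1, fell by 1.01 ± 0.07 in KMS12-BM (adjusted p = 4.06e-07) and by 0.52 ± 0.14 in JJN3 (adjusted p = 0.0096) under TG003. The 2 drugs are compared with the same DMSO libraries in each line, so their values are not independent.

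**Figure D4:**
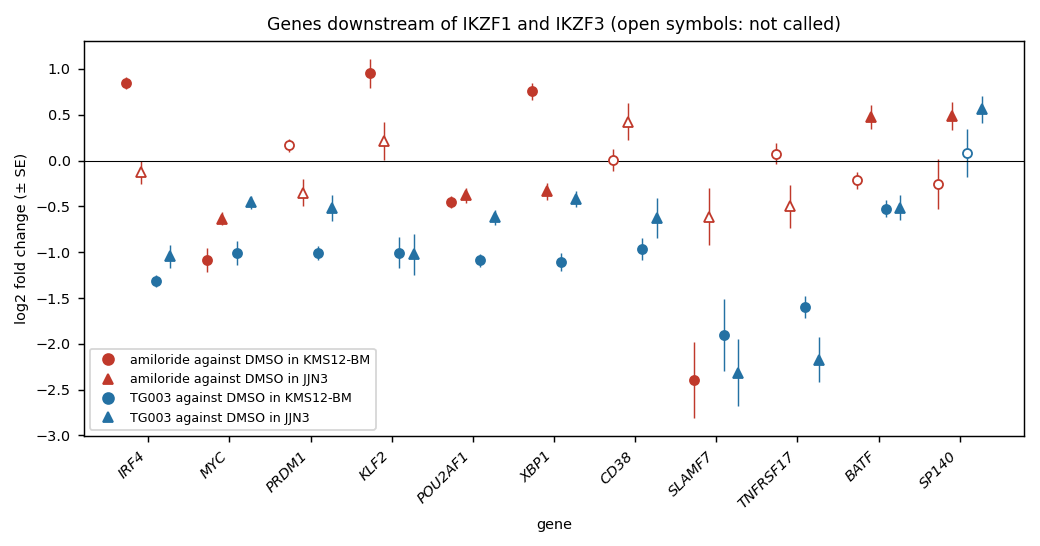
Log2 fold change against DMSO, with the standard error as a vertical line, for 11 of the 12 genes downstream of IKZF1 and IKZF3 or of the same program, circles for KMS12-BM and triangles for JJN3, red for amiloride and blue for TG003. Open symbols were not called, and under TG003 all points lie below 0 apart from SP140, while IRF4 lies at 0.85 under amiloride and -1.32 under TG003 in KMS12-BM.

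Of the chaperone clients, SLC16A1 fell in KMS12-BM and was not called in JJN3, and BSG was called in neither line. SLC16A1, the lactate transporter MCT1, had 266, 252 and 257 CPM under amiloride and 274, 276 and 285 CPM under TG003 in KMS12-BM, against 348, 363 and 379 CPM in DMSO. All 6 treated libraries lay below DMSO, by -0.49 ± 0.06 for amiloride (adjusted p = 2.44e-05) and -0.38 ± 0.06 for TG003 (adjusted p = 0.000293). With the GC trend removed the amiloride value was -0.85. The JJN3 libraries had 330.2, 359 and 356 CPM under amiloride and 321, 351 and 383 CPM under TG003, against 342, 352 and 341 CPM in DMSO, with overlapping ranges (0.01 ± 0.07 and 0.06 ± 0.07, neither called). The responses of the lines differed by -0.51 ± 0.10 for amiloride (adjusted p = 0.000222) and by -0.41 ± 0.10 for TG003 (adjusted p = 0.00649), and with the GC trend removed the amiloride difference was -0.78.

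BSG, which encodes the CD147 chaperone subunit of MCT1, did not pass the test in any drug comparison. In KMS12-BM it had 347, 312 and 271 CPM under amiloride and 346, 317 and 288 CPM under TG003, against 409, 359 and 324 CPM in DMSO. In JJN3 it had 783, 603 and 731 CPM under amiloride and 711, 531 and 624 CPM under TG003, against 754, 672 and 756 CPM in DMSO. The ranges overlapped in all 4 comparisons. The values were -0.23 ± 0.11 for amiloride (adjusted p = 0.0875) and -0.20 ± 0.11 for TG003 (adjusted p = 0.155) in KMS12-BM, and -0.05 ± 0.12 for amiloride (adjusted p = 0.771) and -0.20 ± 0.12 for TG003 (adjusted p = 0.186) in JJN3. Without KMS12-BM amiloride library 1 the amiloride value there was -0.32 (adjusted p = 0.0277) and without DMSO library 3 it was -0.32 (adjusted p = 0.0335). With the library set as a block, BSG was called lower under amiloride in KMS12-BM (-0.23, adjusted p = 0.00512) and under TG003 in KMS12-BM (-0.19, adjusted p = 0.0169) and JJN3 (-0.20, adjusted p = 0.0203). BSG transcripts hold 61.7% G and C, and with the GC trend removed the amiloride value in KMS12-BM turned to 0.42 (adjusted p = 5.34e-05), and the difference between lines to 0.27 (adjusted p = 0.0354), so its direction under amiloride depends on that choice. With the block and the GC trend removed together, the TG003 calls of BSG were lost as well, at -0.04 in KMS12-BM (adjusted p = 0.544) and -0.11 in JJN3 (adjusted p = 0.115). Without the GC correction the responses of the lines differed by -0.19 ± 0.17 for amiloride (adjusted p = 0.411) and by 0.02 ± 0.17 for TG003, neither called.

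Around these, a list of 14 lactate transport genes and partners of CD147 had 13 genes tested. Amiloride raised 2 and lowered 7 in KMS12-BM and raised 1 and lowered 4 in JJN3, and TG003 raised 3 and lowered 8 in KMS12-BM and raised 2 and lowered 7 in JJN3. In the same order the median log2 values were -0.24, -0.12, -0.30 and -0.21, against -0.02, -0.03, -0.03 and -0.04 over all genes. The shares called higher over all genes were 33.5%, 19.7%, 26.9% and 26.2%, and those called lower 35.2%, 23.9%, 31.7% and 32.1%. SLC16A3, the lactate exporter MCT4, fell in all 4 comparisons, with 4.58, 3.04 and 2.72 CPM under amiloride and 7.42, 5.94 and 5.44 CPM under TG003 in KMS12-BM, against 13.8, 13.3 and 12.1 CPM in DMSO. The changes were -1.92 ± 0.19 (adjusted p = 3.64e-06) and -1.05 ± 0.18 (adjusted p = 0.000416) there, and in JJN3 they were -0.53 ± 0.09 for amiloride (adjusted p = 0.000341) and -1.15 ± 0.09 for TG003 (adjusted p = 1.18e-07). LDHA, the enzyme that makes lactate, fell by 0.76 ± 0.09 under amiloride and 0.98 ± 0.09 under TG003 in KMS12-BM, and by 0.75 ± 0.08 and 0.68 ± 0.08 in JJN3, with adjusted p of at most 1.54e-05. EMB, the partner that takes the place of CD147 for some transporters, rose under amiloride in JJN3 by 0.34 ± 0.07 (adjusted p = 0.00177) and was not called in the other 3 comparisons.

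Before any drug the lines differed in 7 of the 10 members, 4 higher and 3 lower in KMS12-BM than in JJN3, where 76.0% of 17772 genes were called, 36.8% higher and 39.3% lower. IKZF1 differed most, with 766, 705 and 736 CPM in KMS12-BM and 96.3, 102 and 94.7 CPM in JJN3, 7.54-fold higher in KMS12-BM (log2 2.91 ± 0.08, adjusted p = 8.07e-18). CUL4A was 3.2-fold higher (1.68 ± 0.09, adjusted p = 2.43e-13), CUL4B 2.06-fold higher (1.04 ± 0.09, adjusted p = 7.68e-10) and CRBN 1.68-fold higher (0.75 ± 0.09, adjusted p = 1.14e-07) in KMS12-BM. BSG was 2.0-fold lower in KMS12-BM (-0.998 ± 0.12, adjusted p = 3.4e-07), ZFP91 was lower by -0.66 ± 0.07 (adjusted p = 4.77e-08) and IKZF3 by -0.32 ± 0.10 (adjusted p = 0.00605). DDB1 (-0.13 ± 0.08), CSNK1A1 (-0.18 ± 0.11) and SLC16A1 (0.07 ± 0.07) were not called, and DDB1 was called without JJN3 DMSO library 3 (-0.21, adjusted p = 0.0299). Around them, GLUL was 10.2-fold lower (-3.35 ± 0.08, adjusted p = 1.97e-18) and EMB 9.03-fold lower (-3.17 ± 0.10, adjusted p = 3.86e-17) in KMS12-BM.

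Levels can be set between genes only per length, here as CPM per kilobase of annotated exon (SD, n = 3). The full exon length was used, although reads assigned to several genes are not counted. Other genes share 49.31% of the exon bases of CSNK1A1 and 29.17% of those of ZFP91 on the same strand. TRNT1 covers 35.58% of those of CRBN on the opposite strand. CSNK1A1, ZFP91 and CRBN may therefore stand too low, and by how much was not tested. In untreated KMS12-BM the order was BSG (82.4 ± 9.67), IKZF1 (67.4 ± 2.79), SLC16A1 (57.2 ± 2.39), DDB1 (38.6 ± 1.83), CUL4A (35.1 ± 1.77), ZFP91 (19.9 ± 1.41), CRBN (7.42 ± 0.99), CSNK1A1 (5.62 ± 0.38), CUL4B (3.14 ± 0.11) and IKZF3 (2.54 ± 0.03). Only the neighbours DDB1 and CUL4A overlapped in range. In untreated JJN3 the order was BSG (165 ± 10.8), SLC16A1 (54.4 ± 0.97), DDB1 (42.2 ± 3.91), ZFP91 (31.3 ± 0.97), CUL4A (10.95 ± 0.96), IKZF1 (8.93 ± 0.33), CSNK1A1 (6.34 ± 0.72), CRBN (4.43 ± 0.09), IKZF3 (3.18 ± 0.09) and CUL4B (1.52 ± 0.14), with no overlap between neighbours. IKZF1 thus stood 2nd in KMS12-BM and 6th in JJN3, and CRBN stood 7th and 8th. These places rest on the length used. With the length of the longest annotated transcript CRBN stayed 7th in KMS12-BM and 8th in JJN3. IKZF1 then stood 3rd and 5th, and DDB1 2nd in both. With the length of the MANE Select transcript, an alternative added after the data were seen, CRBN stood 6th in KMS12-BM (27.3) and 5th in JJN3 (16.3). By that length IKZF1 stood 3rd and 6th, and DDB1 2nd in both (141 and 154).

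The drug responses of the members were set against each other between the lines by the interaction term of the fit to all 18 libraries. For amiloride 5 members were called, 3 higher and 2 lower in KMS12-BM than in JJN3, where 43.2% of 17772 genes were called, 21.6% higher and 21.6% lower. For TG003 2 members were called, 0 higher and 2 lower, where 13.9% of genes were called, 7.13% higher and 6.80% lower. The amiloride differences were those of CRBN, DDB1, CUL4B, ZFP91 and SLC16A1 given above, and the dose of amiloride differed between the lines. The TG003 differences, at the same dose in both lines, were those of IKZF1 and SLC16A1. The TG003 difference of IKZF3 was -0.38 ± 0.14 and not called (adjusted p = 0.0845), and of 24 alternatives it was called in 5: without the 10 most abundant genes (adjusted p = 0.0402), with the GC trend removed (0.0497), with the replicate block as well (0.0369), with pseudogenes summed (0.0274) and with only the groups compared (0.0163).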

How the data were processed

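Poly(A) RNA of 18 libraries, 3 in each of 6 groups, was analysed from the raw read counts per Ensembl gene that the authors deposited. The submitters' processing notes name hg19, cutadapt 1.4, TopHat2 2.0.11, HTSeq 0.6.1p1 and DESeq2 1.12.4; no source used here gives the annotation or the strand setting of the counting. Reads assigned to no gene or to several were left out of library sizes (ambiguous reads were 2.25% to 3.36% of gene and ambiguous reads). No 2 of the 18 files were identical.

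Symbols, loci, lengths and GC content came from GENCODE on GRCh37, which annotated 55538 of 57905 identifiers. Counts were fitted in R 4.3.3 with edgeR 4.0.16 (TMM, filterByExpr with a minimum count of 10 and total of 15, robust quasi-likelihood test, Benjamini-Hochberg adjustment over all genes tested, called under 0.05). Drug comparisons used the 9 libraries of a line, and line and interaction contrasts used all 18. The SE is the log2 fold change divided by the square root of F. The members, the gene lists and the genes named with values were chosen with earlier results of these data known; values are given for every member and for a set of pathway genes fixed by name, and likeness names the 3 closest genes. The values of 1 listed gene are not reported here. TRNT1, CSNK1A1L, ENSG00000230551 and ZFP91-CNTF were named for sharing sequence with members.

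The library numbers in the labels fall into 3 sets, used as a replicate block in an alternative fit. Deviations from group means of same-set libraries correlated over 0.1 in every pair for amiloride in KMS12-BM (r 0.101 to 0.207), TG003 in KMS12-BM (0.111 to 0.285) and TG003 in JJN3 (0.226 to 0.233), and not for amiloride in JJN3 (0.000391 to 0.0986). The results are from the fit without the block; where the sets pair, blocked values stand beside the calls they change. Other alternatives were upper-quartile and DESeq2 scaling, removal of the 10 most abundant genes, other filters, DESeq2 1.42.0 and limma 3.58.1 voom tests, removal of the trend on GC content, pseudogene counts summed into parent genes, fits to the groups compared alone, and each library left out. On simulated counts with a log2 change of 1, the fit recovered 81% of changed genes for amiloride in KMS12-BM, 80% in JJN3 and 71% for the amiloride interaction; with a log2 change of 0.5 it recovered 36%, 56% and 21%. Of its calls 7.87%, 4.90% and 8.91% were false. The simulation changed 100 genes by each amount, among 15765, 15704 and 17772 genes. Far larger shares were called in the data (68.7%, 43.6% and 43.2%), so these rates need not hold there.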

Additional observations from a re-analysis of the deposited data

Results flagged for a closer look

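The response to a drug differed between the lines, by the interaction term of edgeR's fit to 18 libraries with Benjamini-Hochberg adjustment, for 5 members under amiloride and 2 under TG003. Under amiloride the KMS12-BM log2 response minus the JJN3 response was 1.22 for CRBN (adjusted p = 1.21e-07), -1.25 for DDB1 (adjusted p = 4.33e-08), 0.40 for CUL4B (adjusted p = 0.0111, and 0.06 with adjusted p = 0.722 when the GC trend was removed), 0.69 for ZFP91 (adjusted p = 1.2e-05) and -0.51 for SLC16A1 (adjusted p = 0.000222). Under TG003 it was -0.46 for IKZF1 (adjusted p = 0.00634) and -0.41 for SLC16A1 (adjusted p = 0.00649). All 3 KMS12-BM amiloride libraries lay above DMSO for CRBN, CUL4B and ZFP91 and below it for DDB1 and SLC16A1, and all 3 KMS12-BM TG003 libraries lay below DMSO for IKZF1 and SLC16A1. The amiloride doses of the lines differed, so line and dose cannot be told apart.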

How the results depend on the processing

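Over 70 single gene results, 1272 of 1380 alternative values kept their direction and side of the threshold, 36 lost a call, 34 gained one and 38 changed sign. CRBN under amiloride in KMS12-BM stayed called in all 18 alternatives (1.03 to 1.56), as did DDB1 (-1.43 to -1.24), ZFP91 (0.78 to 1.11), CSNK1A1 (0.32 to 0.81) and SLC16A1 (-0.85 to -0.47); the cause of the changes below was not tested. With the GC trend removed, the amiloride values in KMS12-BM became 0.418 for BSG, -0.12 for CUL4B and -0.161 for CUL4A, those in JJN3 0.0681 for BSG and -0.0476 for SLC16A1, and the BSG difference between lines 0.268. With the replicate block as well they were 0.419, -0.123, -0.163, 0.0663, -0.0488 and 0.268. Upper-quartile scaling gave -0.0562 for CUL4A and -0.0516 for IKZF1 under amiloride and 0.0089 for CUL4A and 0.00268 for CSNK1A1 under TG003, all in KMS12-BM. The BSG TG003 difference between lines was -0.0251 without the 10 most abundant genes, -0.0468 with pseudogenes summed and -0.0197 with only the groups compared.

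With each library left out in turn, members called under TG003 ranged over 3 to 5 in KMS12-BM and 2 to 4 in JJN3. Uncalled values that crossed 0 were those of CUL4A (-0.0201 to 0.0865), IKZF1 (-0.0533 to 0.081) and IKZF3 (-0.136 to 0.0575) under amiloride in KMS12-BM, SLC16A1 (-0.0129 to 0.0391) and BSG (-0.135 to 0.0599) under amiloride in JJN3, DDB1 (-0.0418 to 0.0778) and SLC16A1 (-0.00529 to 0.115) under TG003 in JJN3, and the BSG TG003 difference between lines (-0.0796 to 0.129). The levels per length changed with the length used, as given for CRBN, IKZF1 and DDB1.

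The replicate block raised the members called to 7 for amiloride and 6 for TG003 in KMS12-BM and to 8 for TG003 in JJN3, by BSG and CUL4B as given above (without a GC correction), and changed no other call where sets pair the libraries. For amiloride in JJN3, where they do not, the block called 6 members, adding CUL4A (-0.18, adjusted p = 0.0262) and IKZF3 (0.20, adjusted p = 0.0356). It left 7 members called between the lines and 5 and 2 in the amiloride and TG003 interactions. Each group held 3 libraries, and IKZF3 had the lowest counts, 655 to 1746 reads.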
